A study of Mus musculus with 18 samples.

Results

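NF-kB is a family of transcription factors built from subunits that pair with one another, and the 10 genes described here encode those subunits and the proteins that hold them back. The genes were taken by symbol from a deposited table of 54347 mouse genes: the subunit genes Nfkb1, Nfkb2, Rel, Rela and Relb, the inhibitor genes Nfkbia, Nfkbib and Nfkbie, the atypical inhibitor family gene Bcl3, and the feedback gene Tnfaip3. Each of the 10 was found once, and each passed the filter on low counts. The cells were leukemia stem cells sorted from bone marrow of C57BL/6JRj mice at day 30 after leukemia was started, with 7000 cells per mouse. The study compared 5 mice of the genotype Prx1-Cxcl12-mutant (MUT mice 6, 7, 8, 10 and 12) with 4 mice of the genotype Prx1-Cxcl12-wild type (WT mice 1, 2, 3 and 4). All 9 mice carried leukemia, and each gave 2 technical libraries made by MARS-seq, a low-input method that reads the 3′ ends of polyadenylated RNA. Prx1 names a promoter that is active in mesenchymal cells of the limb, and Cxcl12 encodes a chemokine that marrow stromal cells make. The genotype label thus names stromal cells of the host, and not the sorted cells. The sources used here name no Cre allele, leukemia driver, sorting marker or age.

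In resting cells, inhibitor proteins of the IkB family bind NF-kB dimers and keep them out of the nucleus. Signals from tumour necrosis factor, interleukin-1 or Toll-like receptors activate a kinase complex that marks the inhibitors for destruction, and the freed dimers switch on target genes that include their own inhibitors. A second branch processes the Nfkb2 precursor into a shorter subunit that pairs with the Relb product. In the marrow the pathway is known for its roles in myeloid cells, inflammation and leukemia cell survival. The comparison addressed whether the RNA of these genes in the sorted cells differed between hosts with mutant and wild-type stromal Cxcl12.

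The promoters are shown for Nfkb2, the gene whose mouse values separated by genotype, and for Nfkbia and Tnfaip3, both of which NF-kB itself is known to switch on. The sequences are those of RefSeq on GRCm38.p6, from 250 bases before to 50 bases after the annotated start, 5′ to 3′ on the strand of the gene. Capitals mark matches to the kB motif on either strand, which is 3 G, a purine, 2 bases of any kind, 2 pyrimidines and 2 C. The windows are chr19:46304487-46304786 on the plus strand for Nfkb2 (the first of 3 listed starts), chr12:55492598-55492897 on the minus strand for Nfkbia, and chr10:19015361-19015660 on the minus strand for Tnfaip3 (the upstream one of 2 listed starts).
Nfkb2: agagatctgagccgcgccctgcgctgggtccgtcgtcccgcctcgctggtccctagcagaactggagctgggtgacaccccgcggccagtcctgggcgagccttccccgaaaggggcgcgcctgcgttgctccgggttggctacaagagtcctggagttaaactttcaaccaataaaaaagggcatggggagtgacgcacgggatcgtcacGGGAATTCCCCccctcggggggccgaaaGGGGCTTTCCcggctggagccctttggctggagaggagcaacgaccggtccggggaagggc
Nfkbia: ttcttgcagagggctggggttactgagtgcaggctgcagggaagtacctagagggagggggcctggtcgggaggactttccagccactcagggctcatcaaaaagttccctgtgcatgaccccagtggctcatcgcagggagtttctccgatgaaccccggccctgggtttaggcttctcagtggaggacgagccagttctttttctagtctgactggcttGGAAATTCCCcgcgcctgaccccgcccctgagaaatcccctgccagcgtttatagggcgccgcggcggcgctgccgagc
Tnfaip3: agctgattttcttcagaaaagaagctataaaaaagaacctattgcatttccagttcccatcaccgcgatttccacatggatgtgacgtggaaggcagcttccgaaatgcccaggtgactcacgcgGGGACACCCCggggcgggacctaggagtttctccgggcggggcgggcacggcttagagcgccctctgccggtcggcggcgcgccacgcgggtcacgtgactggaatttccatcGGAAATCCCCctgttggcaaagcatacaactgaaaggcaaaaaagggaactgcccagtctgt
The Nfkb2 window held 3 matches, of which 2 overlap by all but 1 base, the Tnfaip3 window held 2, and the Nfkbia window held 1. Of the other windows, that of Bcl3 held GGGAAGTCCC, that of Nfkbie held GGGGGATTCC, and that of Rel held GGGAAATCCC with a second, overlapping match. The second listed Nfkb2 window held GGAATGTCCC and GGGACTTTCC. The third, which overlaps the second, held the same GGGACTTTCC. The windows of Rela and Nfkbib and the downstream Tnfaip3 window held no match. Of the 10 genes 8 had an entry, all but Nfkb1 and Relb, and 6 of these 8 had at least 1 match in at least 1 window. Counted by window, 8 of the 11 listed promoters of these genes held at least 1 match. Of all 32851 promoters in the table, 8.46% held at least 1 match and 1.22% held at least 2. Of the promoters of tested genes, 9.99% held at least 1 and 1.38% at least 2. A match describes letters in a window and is not evidence of binding.

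On GRCm38 the genes lie as follows. Nfkb1 (ENSMUSG00000028163) is on chromosome 3, 135584655 to 135691547, and Nfkb2 (ENSMUSG00000025225) on 19, 46304320 to 46312385. Rel (ENSMUSG00000020275) is on 11, 23736847 to 23770970, Rela (ENSMUSG00000024927) on 19, 5637483 to 5648130, and Relb (ENSMUSG00000002983) on 7, 19606217 to 19629438. Nfkbia (ENSMUSG00000021025) is on 12, 55489410 to 55492647, Nfkbib (ENSMUSG00000030595) on 7, 28758251 to 28767512, and Nfkbie (ENSMUSG00000023947) on 17, 45555703 to 45563169. Tnfaip3 (ENSMUSG00000019850) is on 10, 19000910 to 19015657, and Bcl3 (ENSMUSG00000053175) on 7, 19808462 to 19822770. Rel, Rela, Relb, Nfkbia, Nfkbie and Tnfaip3 overlap no other annotated gene. The start of Nfkbib overlaps Sirt2 on the opposite strand by 778 bases, and Sirt2 had 8432 counts over the MUT mice and 5591 over the WT mice. The start of Nfkb2 overlaps an opposite-strand noncoding gene by 1292 bases, which had 646 counts over the MUT mice and 415 over the WT mice. Its 3′ end overlaps Psd, which had 1 count over the MUT mice and 0 over the WT mice. The 3′ end of Nfkbib overlaps Ccer2 on the opposite strand by 718 bases, and Ccer2 had 1 count over the MUT mice and 2 over the WT mice. The sources used here do not say whether counting used strand, so reads within an overlap may not be told apart. The method reads 3′ ends, and the overlaps with Sirt2 and the noncoding gene lie at the starts of Nfkbib and Nfkb2. How many reads fell within an overlap was not examined. Nfkb1 and Bcl3 overlap predicted or antisense genes with at most 110 counts in a group.

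Total counts per mouse were 15959029 to 25485899 in MUT mice and 11766467 to 16784991 in WT mice, so the WT values carry the larger counting error. Levels are given as CPM, the counts of a gene per 1000000 counts of the mouse, scaled by TMM factors that even out library composition. On this scale a count of 3 in a mouse equals 0.120 to 0.178 CPM in MUT mice and 0.178 to 0.237 CPM in WT mice, and such floors cover counting error only. The haematopoietic and progenitor markers (Ptprc, Spi1, Cd34, Kit, Cd44, Myb, Hoxa9 and Meis1) were all counted in every mouse and summed to 771 to 959 CPM in MUT mice and 895 to 1161 CPM in WT mice, with 8 of 8 log2 fold changes below 0. The mature neutrophil markers summed to 159 to 357 CPM in MUT mice and 367 to 763 CPM in WT mice, which do not overlap. In that list 4 of 8 had a log2 fold change below 0, none of the 8 was at 0 in every mouse, and Camp, a granule gene, carried 75.3 to 195 CPM of the sum in MUT mice and 281 to 550.3 CPM in WT mice. The monocyte and macrophage markers summed to 213 to 338 CPM in MUT mice and 235 to 357 CPM in WT mice, with 6 of 7 tested below 0. The B cell markers summed to 126 to 214 CPM in MUT mice and 163 to 227 CPM in WT mice, with 3 of 3 tested below 0. The erythroid markers summed to 14.2 to 57.8 CPM in MUT mice and 5.98 to 51.2 CPM in WT mice, with 6 of 6 tested above 0, and Car1 did not overlap, at 1.304 to 3.84 CPM in MUT mice and 0 to 0.83 CPM in WT mice. The megakaryocyte markers summed to 21.6 to 33.2 CPM in MUT mice and 30.2 to 41.1 CPM in WT mice, with 2 of 3 tested below 0 and Itga2b without overlap at 0.38 to 1.01 CPM in MUT mice and 2.02 to 3.08 CPM in WT mice. The stromal and endothelial markers summed to 38.3 to 52.3 CPM in MUT mice and 46.0 to 59.2 CPM in WT mice, with 2 of 3 tested below 0. The T and NK cell markers summed to 102 to 194 CPM in MUT mice and 89.3 to 144 CPM in WT mice, nearly all of it Nkg7, a granule gene at 101 to 194 CPM in MUT mice and 88.9 to 144 CPM in WT mice, while Cd3g, Cd4 and Ncr1 were at 0 in every mouse. Xist was at 142 to 235 CPM in MUT mice and 168 to 221 CPM in WT mice, and of the Y-linked genes Ddx3y was at or under 3 counts in every mouse, Uty was at 0.24 to 0.89 CPM in MUT mice and 0.24 to 1.03 CPM in WT mice, and Kdm5d was at 0.40 to 0.66 CPM in MUT mice and 0.48 to 0.83 CPM in WT mice. Single markers named here other than those at 0 were chosen after their values were seen. In bulk RNA, fewer cells of a type and less RNA per cell cannot be told apart, and the part of the marker differences in the results on the 10 genes was not tested.

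None of the 10 genes changed past the threshold between MUT and WT mice. The fold changes were small, from 0.715-fold for Relb to 1.149-fold for Nfkb1, and 8 of the 10 lay below 1, against 48.3% of all 12973 genes tested. The median log2 fold change of the 10 was -0.18, against 0.01 over all tested genes. Nfkb2, the precursor gene of the second NF-kB branch, was the gene in which every MUT mouse lay below every WT mouse. Nfkb1, the precursor gene of the classical branch, and the inhibitor gene Nfkbib had fold changes above 1.

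The genes were tested with edgeR's quasi-likelihood test across all genes with Benjamini-Hochberg adjustment, and 0 of the 10 were called, where 0.0694% of all tested genes were called (9 genes, 3 higher and 6 lower in MUT mice). DESeq2 and limma-voom also called 0 of the 10. At an unadjusted p under 0.05, 1 of the 10 was found, Nfkb2, against 9.85% of all tested genes, and 1 of the 10 had groups that did not overlap, again Nfkb2 and lower in MUT mice, against 2.13% of all tested genes that were lower without overlap. A single gene is 10% of a set of 10, so the first share lies at the background and neither is read as a result about the set. The 2.13% leaves out genes that were higher in MUT mice without overlap. The genes were chosen with earlier results of these data known.

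**Figure D1:**
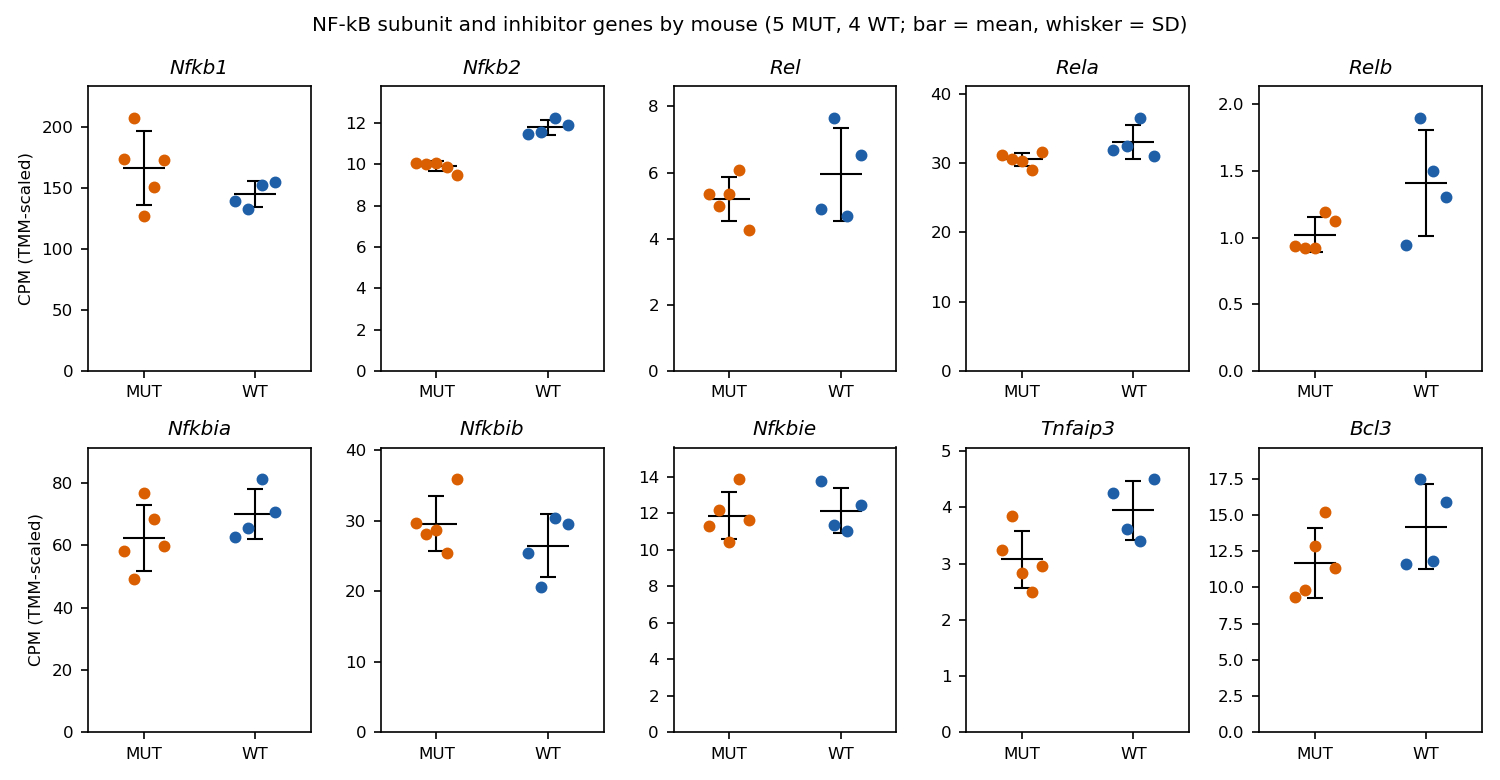
Depth-scaled counts (CPM, y axis, from 0) of the 10 genes in each mouse, with MUT mice at the left and WT mice at the right of each panel. Bars are group means and whiskers the SD (n = 5 MUT and 4 WT), and only in the Nfkb2 panel do all 5 MUT points lie below all 4 WT points.

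Of the subunit genes, Nfkb2 encodes the precursor that is cut to the subunit partnering the Relb product. It was at 10.1, 9.99, 10.1, 9.89 and 9.49 CPM in MUT mice 6, 7, 8, 10 and 12, against 11.5, 11.6, 12.3 and 11.9 CPM in WT mice 1, 2, 3 and 4. The groups did not overlap, and the gap between the highest MUT mouse and the lowest WT mouse was larger than the range within either group. Nfkb2 averaged 9.90 ± 0.24 CPM in MUT mice (SD, n = 5) and 11.8 ± 0.36 CPM in WT mice (SD, n = 4). The fold change was 0.839 with a 95% interval of 0.723 to 0.974 (log2 fold change -0.25, SE 0.10), the unadjusted p was 0.0249, and the edgeR adjusted p was 0.417, which does not pass.

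The Nfkb2 counts ran from 160 to 249 in MUT mice and from 145 to 201 in WT mice. Counts of this size give a counting error of about 7.12% of the mean in MUT mice and 7.51% in WT mice. The mice differed by less than that, with coefficients of variation of 2.47% in MUT mice and 3.06% in WT mice, so the spread seen in this gene is narrower than counting alone gives on average. In the first technical libraries MUT mice had 9.84 to 10.9 CPM and WT mice 11.07 to 12.2 CPM, and in the second MUT mice had 8.58 to 10.1 CPM and WT mice 11.2 to 13.4 CPM. Neither set of libraries showed overlap, though both come from the same mice. The log2 fold change was -0.14 (SE 0.15) in the first libraries alone and -0.37 (SE 0.13) in the second, with edgeR adjusted p-values of 0.818 and 0.399, within a range of 0.263 to 0.982 over all 20 alternative settings. The neutrophil marker sum given above also did not overlap between the groups. Of its 8 markers only Camp had groups without overlap, and 4 of the 8 had a log2 fold change above 0. The part of these markers in the Nfkb2 values was not tested.

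Nfkb1 encodes the precursor of the subunit that pairs with the Rela product in the classical dimer. It was at 173, 207, 127, 151 and 173 CPM in MUT mice, in the order given above, against 139, 132, 152 and 155 CPM in WT mice. Mutant mice lay on both sides, 3 of them above every WT mouse and MUT mouse 8 below every WT mouse. The fold change was 1.149 with a 95% interval of 0.946 to 1.40 (log2 fold change 0.20, SE 0.13, edgeR adjusted p = 0.630). The log2 value was 0.11 without MUT mouse 7, the highest, whose first and second libraries were at 234 and 167 CPM. It was 0.13 without the first of these libraries, and 0.29 without MUT mouse 8. The spread was wider in MUT mice, at 166 ± 30.0 CPM (SD, n = 5), than in WT mice, at 145 ± 10.7 CPM (SD, n = 4), and this difference in spread was not tested.

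Rela encodes the main activating subunit of the classical dimer. It had 29.0 to 31.6 CPM in MUT mice and 31.0 to 36.6 CPM in WT mice, with 3 of 5 MUT mice below every WT mouse. Its interval was among the narrowest, a fold change of 0.925 with a 95% interval of 0.818 to 1.05 (log2 fold change -0.11, SE 0.08, edgeR adjusted p = 0.675). The log2 value was -0.03 in the first technical libraries alone, -0.17 in the second alone and -0.06 without WT mouse 3. Rel, the subunit gene known for its part in lymphocyte activation, had 4.27 to 6.09 CPM in MUT mice and 4.70 to 7.66 CPM in WT mice. The 2 groups overlapped, and WT mouse 2 was the highest of all 9. The Rel fold change was 0.873 with a 95% interval of 0.666 to 1.14 (log2 fold change -0.20, SE 0.18, edgeR adjusted p = 0.746). Its log2 value was -0.05 without WT mouse 2 and -0.37 with the log2 total count as a covariate.

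Relb, whose product pairs with the processed Nfkb2 product, was the gene with the fewest reads. It had 17, 23, 22, 22 and 19 counts in MUT mice and 12, 32, 22 and 22 counts in WT mice. Scaled to depth these are 0.936, 0.923, 0.919, 1.195 and 1.13 CPM in MUT mice, against 0.948, 1.90, 1.498 and 1.304 CPM in WT mice. The MUT mice sat at the low end and 3 of the 5 lay below every WT mouse, while WT mouse 1 lay among the MUT mice. The fold change of 0.715 is the lowest of the set, yet its 95% interval of 0.476 to 1.07 is also the widest (log2 fold change -0.48, SE 0.27, edgeR adjusted p = 0.574). It was -0.75 in the first technical libraries alone and -0.14 in the second on the log2 scale, and -0.31 without WT mouse 2.

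Of the inhibitors, Nfkbia encodes IkB alpha, which is destroyed on activation and made again as a direct target. It was at 58.3, 49.2, 76.8, 68.3 and 59.7 CPM in MUT mice, against 62.6, 65.7, 81.2 and 70.7 CPM in WT mice. The groups overlapped, with 3 of 5 MUT mice below every WT mouse and MUT mouse 8 above 3 of the 4 WT mice. The fold change was 0.891 with a 95% interval of 0.736 to 1.08 (log2 fold change -0.17, SE 0.13, edgeR adjusted p = 0.690). Its log2 value was -0.09 without MUT mouse 7, -0.25 without MUT mouse 8 and -0.09 without WT mouse 3. Mouse-to-mouse spread within groups was an SD of 0.21 on the log2 scale, above the 0.13 that the paired technical libraries give for a mouse value.

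Nfkbib encodes IkB beta, a slower-responding inhibitor, and Nfkbie encodes IkB epsilon, a further feedback inhibitor. Nfkbib had 25.4 to 35.9 CPM in MUT mice and 20.7 to 30.4 CPM in WT mice, with MUT mouse 12 above every WT mouse and WT mice 1 and 2 below every MUT mouse. Its fold change was 1.12 with a 95% interval of 0.916 to 1.36 (log2 fold change 0.16, SE 0.13, edgeR adjusted p = 0.714). Its log2 value was 0.05 in the first technical libraries alone, 0.05 without WT mouse 2 and 0.08 without MUT mouse 12. With the log2 total count as a covariate it was 0.26. Nfkbie had 10.4 to 13.9 CPM in MUT mice and 11.03 to 13.7 CPM in WT mice, and 1 MUT mouse lay beyond the WT range at either end. Its fold change of 0.978 had a 95% interval of 0.815 to 1.17 (log2 fold change -0.03, SE 0.12, edgeR adjusted p = 0.948). Its sign turned without MUT mouse 8 (0.013) or without WT mouse 1 (0.030).

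Bcl3 encodes a nuclear member of the IkB family that binds the Nfkb1 and Nfkb2 products on DNA. It was at 9.31, 9.79, 12.8, 15.2 and 11.3 CPM in MUT mice, against 11.6, 17.5, 11.8 and 15.9 CPM in WT mice. The groups overlapped. MUT mice 6 and 7 were the lowest of all 9, and WT mice 2 and 4 the highest. The fold change was 0.822 with a 95% interval of 0.632 to 1.07 (log2 fold change -0.28, SE 0.17, edgeR adjusted p = 0.614). Its log2 value was -0.17 without WT mouse 2 and -0.39 without MUT mouse 10.

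Tnfaip3 encodes an enzyme that edits ubiquitin chains and shuts the pathway off after activation. It was at 3.25, 3.85, 2.84, 2.50 and 2.96 CPM in MUT mice, against 4.26, 3.62, 3.41 and 4.50 CPM in WT mice. Of the 5 MUT mice 4 lay below every WT mouse, and MUT mouse 7 lay above 2 of the 4 WT mice. The fold change was 0.782 with a 95% interval of 0.592 to 1.03 (log2 fold change -0.35, SE 0.18, unadjusted p = 0.0787, edgeR adjusted p = 0.545). The log2 value was -0.28 without WT mouse 4 and -0.48 without the first library of MUT mouse 7. The counts were low, 46 to 96 in MUT mice and 50 to 76 in WT mice. The first library gave the higher level in all 9 mice, by 0.45 on the log2 scale on average, with the widest gaps in MUT mouse 7 (4.75 CPM in the first library and 2.53 CPM in the second) and WT mouse 4 (6.17 CPM and 2.67 CPM). Of all tested genes 0.193% had the first library higher in every mouse.

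**Figure D2:**
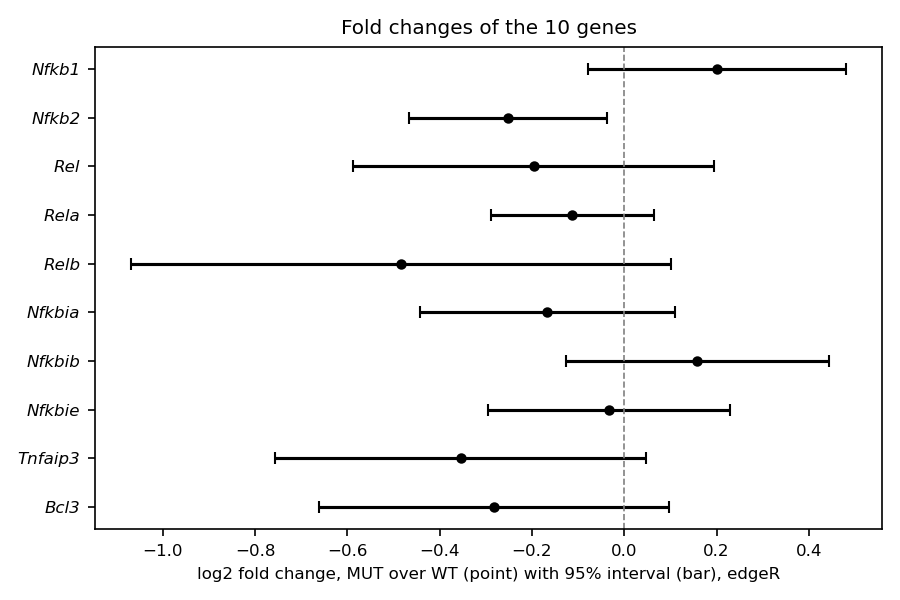
Log2 fold changes of the 10 genes, MUT over WT (points), with their 95% intervals (bars) from edgeR's quasi-likelihood fit. The Nfkb2 interval, -0.47 to -0.04, is the 1 that does not include 0, and that of Relb, -1.07 to 0.10, is the widest.

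**Figure D3:**
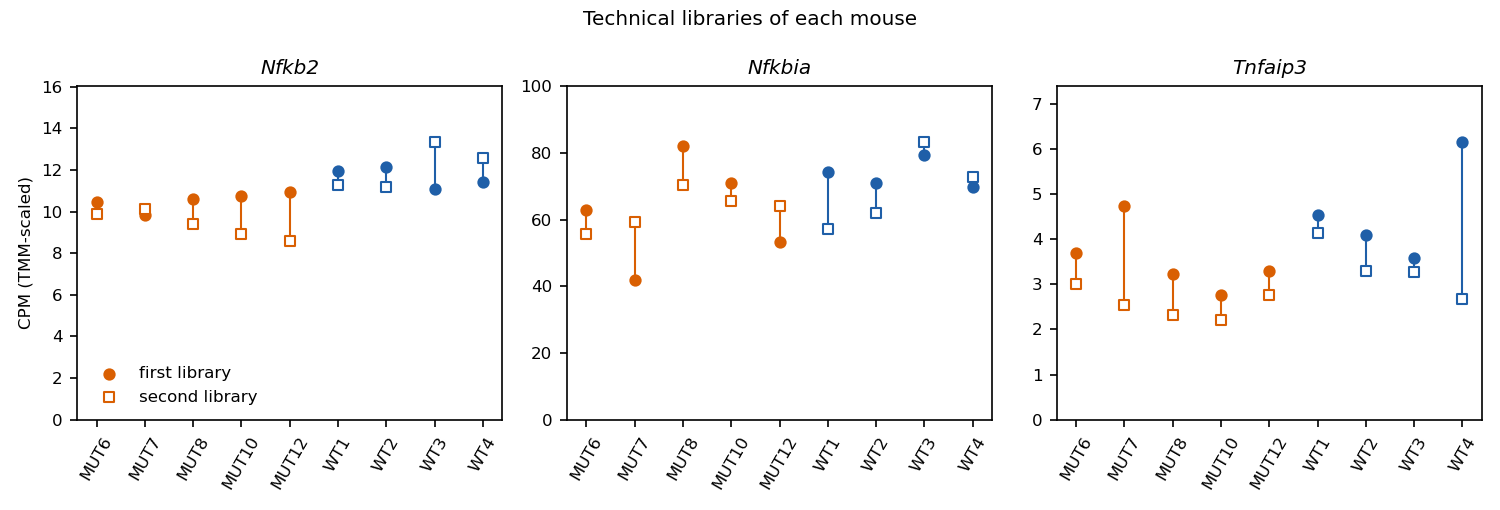
CPM of Nfkb2, Nfkbia and Tnfaip3 in the first (filled circle) and second (open square) technical library of each mouse, MUT mice at the left of each panel. Nfkb2 libraries of MUT mice reach at most 10.9 CPM and those of WT mice start at 11.07 CPM, while Nfkbia and Tnfaip3 libraries of the groups overlap.

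The repeat libraries show how much of the spread is technical. On the log2 scale the within-group SD between mice exceeded the technical SD of a mouse value for Nfkb1 (0.21 against 0.11), Rel (0.26 against 0.22), Nfkbia (0.21 against 0.13), Nfkbib (0.22 against 0.13), Nfkbie (0.15 against 0.14) and Bcl3 (0.29 against 0.17). It was smaller for Nfkb2 (0.04 against 0.10), Rela (0.08 against 0.09), Relb (0.31 against 0.33) and Tnfaip3 (0.22 against 0.28). For Nfkb2 and Relb the technical error of a mouse value was larger than the spread between mice. The technical SD also counts any offset between first and second libraries that all mice share, which adds no spread between mice. On the log2 scale that offset averaged 0.45 for Tnfaip3 and -0.11 for Rela, so the order of the SDs cannot be read for these genes.

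Summed over the 10 genes, the level was 305 to 357 CPM in MUT mice and 305 to 345 CPM in WT mice. Without Nfkb1 the sums were 159, 150, 178, 171 and 168 CPM in MUT mice, against 167, 172, 193 and 184 CPM in WT mice, a mean of 165 ± 11.1 CPM in MUT mice (SD, n = 5) and 179 ± 11.6 CPM in WT mice (SD, n = 4). The groups overlapped in both sums, and no test was made over the set.

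The genes were followed across mice as well. Over the 9 mice, 36 pairs of the 9 genes other than Nfkb2 were correlated on log2 CPM, with exact permutation over all pairings and Benjamini-Hochberg adjustment over the 36. None passed, with a smallest adjusted p of 0.254 for Pearson's r, 4 had an unadjusted p under 0.05, and 19 of the 36 values of r were above 0. The pair with the smallest p was Rel and Bcl3, with r = 0.79 (exact permutation p = 0.0114, n = 9) and Spearman's rho = 0.72 (exact permutation p = 0.0369, adjusted 0.547, n = 9). Without the 2 mice farthest from the median of Rel, r was 0.73. Rel and Nfkbib had r = -0.76 (exact permutation p = 0.0172, n = 9) and rho = -0.58 (exact permutation p = 0.108, adjusted 0.620, n = 9). That r was -0.08 without the 2 mice farthest from the median of Rel. Leaving out the extremes of a gene narrows its range, so this drop cannot show whether the relation rests on those mice. Nfkb1 and Nfkbia had r = -0.75 (exact permutation p = 0.0212, n = 9) and rho = -0.63 (exact permutation p = 0.0760, adjusted 0.547, n = 9). That r was -0.33 without the 2 mice farthest from the median of Nfkb1, with the same limit. Relb and Bcl3 had r = 0.72 (exact permutation p = 0.0299, n = 9) and rho = 0.63 (exact permutation p = 0.0760, adjusted 0.547, n = 9), with r = 0.78 without the 2 mice farthest from the median of Relb. The permutations ran over all 9 mice without regard to genotype, so a shift between the groups enters each r. On deviations from the group means, r was 0.76 for Rel and Bcl3, -0.73 for Rel and Nfkbib, -0.69 for Nfkb1 and Nfkbia, and 0.61 for Relb and Bcl3.

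Genes around the set were taken from lists of the pathway. Of 29 receptor and adaptor genes 21 were tested and 0 were called by edgeR, with 0 at an unadjusted p under 0.05, 9 below 0 and 12 above 0, and a median log2 fold change of 0.01. The 3 with the smallest p were the negative regulator Irak3 at 11.9 ± 1.18 CPM in MUT mice and 14.2 ± 2.05 CPM in WT mice (log2 fold change -0.25, SE 0.13, adjusted p = 0.544), the endotoxin receptor gene Tlr4 at 2.44 ± 0.61 CPM in MUT mice and 1.56 ± 0.72 CPM in WT mice (0.63, SE 0.32, adjusted p = 0.544), and the adaptor gene Myd88 (0.10, SE 0.09, adjusted p = 0.750). Cd40, Tnfrsf13c, Tnfrsf11a, Tlr3, Tlr7, Tlr9, Il1r1 and Il18r1 did not pass the filter on low counts.

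Of 28 kinase and modifier genes 27 were tested and 0 were called by edgeR, with 0 at an unadjusted p under 0.05, 14 below 0 and 13 above 0, and a median of -0.04. The smallest p-values belonged to Nkiras2, which encodes a protein that binds IkB (28.5 ± 0.97 CPM in MUT mice and 25.3 ± 3.23 CPM in WT mice, log2 fold change 0.17, SE 0.10), to the kinase adaptor gene Tank (0.23, SE 0.14), and to Rnf31, the catalytic subunit gene of the linear ubiquitin ligase (-0.20, SE 0.12). Their edgeR adjusted p-values lay between 0.574 and 0.603. The Tank value was 0.07 without the first library of MUT mouse 7, a mouse whose libraries were at 86.4 and 39.3 CPM. For Rnf31 the MUT and WT mice did not overlap, at 11.6 ± 1.52 CPM in MUT mice (SD, n = 5) and 13.3 ± 0.30 CPM in WT mice (SD, n = 4), which is 1 of the 27 tested, against 2.13% of all tested genes that were lower without overlap. The Rnf31 groups overlapped in the first and in the second technical libraries taken alone, and the log2 fold change was -0.08 with the log2 total count as a covariate.

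Of 28 known target genes 20 were tested and 0 were called by edgeR, with 1 lower and 1 higher at an unadjusted p under 0.05, against 9.85% of all tested genes in both directions, 11 below 0 and 9 above 0, and a median of -0.02. DESeq2 and limma-voom also called 0 in each of the 3 lists. Ier3, an early response gene, had 21.0, 15.5, 22.5, 16.1 and 13.7 CPM in MUT mice, against 24.2, 35.2, 21.8 and 23.7 CPM in WT mice (log2 fold change -0.56, SE 0.18, unadjusted p = 0.00729, edgeR adjusted p = 0.337). The Ier3 value was -0.92 in the first technical libraries alone and -0.27 in the second. MUT mouse 8 lay above WT mouse 3, so the groups overlapped. Zfp36, which encodes a protein that destabilises inflammatory mRNAs, had 16.3, 21.3, 17.9, 19.3 and 17.3 CPM in MUT mice, against 29.1, 31.9, 15.3 and 20.4 CPM in WT mice (-0.39, SE 0.19, edgeR adjusted p = 0.520). WT mice 1 and 2 were the high ones for Zfp36, and WT mice 3 and 4 lay within or below the MUT range. Bcl2a1d is a survival gene with near-identical copies that share its reads. It had 80 counts over the MUT mice and 13 over the WT mice (1.82, SE 0.74, edgeR adjusted p = 0.433). Single mice had 0 to 27 counts, and MUT mouse 7 had 27.5 in the first library and 0 in the second. The shared reads and the low counts both leave its value uncertain, and only 11 of the 20 alternatives gave one. Il1b, Il6, Cxcl1, Cxcl2, Traf1, Cd83, Ptgs2 and Plau did not pass the filter.

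**Figure D4:**
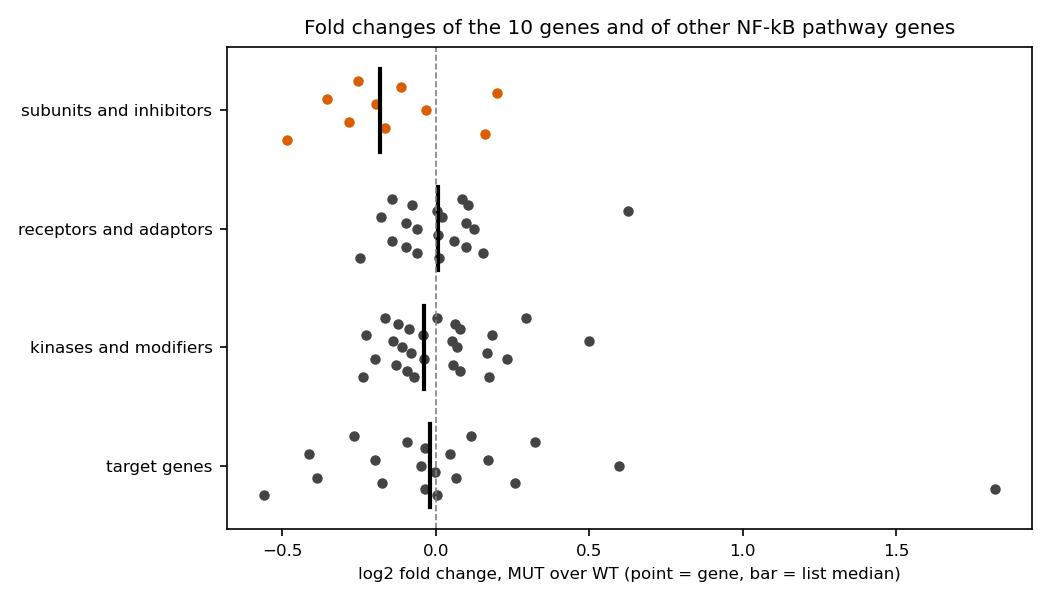
Log2 fold changes, MUT over WT, of the 10 subunit and inhibitor genes (top row) and of the tested receptor, kinase and target genes of the pathway (lower rows), 1 point per gene with a bar at each median. The medians are -0.18 for the 10 genes and 0.01, -0.04 and -0.02 for the other lists, and the isolated point at 1.82 is Bcl2a1d.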

How the data were processed

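Estimated counts of 18 libraries came in the 1 table that the authors deposited. Salmon 1.3, bcl2fastq and FastQC are named with the build GRCm38 in the submitters' processing notes, with no roles. The sources used here give neither the annotation release nor the strand setting, and do not say whether molecular identifiers were counted. The first 18 characters of each ID were matched to a GENCODE M21 symbol, which gave 54094 of 54347 names.

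The mouse is the unit of replication, so the 2 libraries of each were added up and rounded. The quasi-likelihood F-test was run in edgeR 4.0.16 (R 4.3.3) with no covariate, after TMM scaling and a filterByExpr filter at 10 counts. It was 2-sided and tested 12973 genes over 9 mice, and calls needed an adjusted p under 0.05. CPM values are TMM-scaled. Mouse numbers are not shared between groups, so no pairing was used. This test was also tried on simulated data with known changes. Those changes were all larger than the fold changes of the 10 genes, so the trial does not bear on changes of that size. Library totals ran from 3825500 to 15071673.

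Named are all 10 genes, and from each pathway list any called gene and the 3 with the smallest p. Withheld items of the lists are not reported here. The genes and lists were chosen with earlier results of these data known. Alternatives were RLE and upper-quartile factors, DESeq2 1.42.0, limma-voom (3.58.1), 2 other filters, single technical libraries, a random effect of the mouse, a covariate for log2 total count, calls at 0.1, and each mouse left out in turn. Leaving out the first library of MUT mouse 7, the deepest library, was added after the data had been seen.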

Additional observations from a re-analysis of the deposited data

How the results depend on the processing

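None of the 10 genes, and none of the tested pathway genes, was called under any alternative that was run, and the log2 fold changes of 9 of the 10 genes kept their sign in each that gave a value. Their size was less steady: in 9 of the 10, all but Tnfaip3, at least 1 alternative moved the log2 fold change by over 1.5 times in either direction. Nfkbie, at -0.03, turned to 0.079 in the second technical libraries alone, to 0.082 with the log2 total count as a covariate, to 0.013 without MUT mouse 8 and to 0.030 without WT mouse 1. Leaving out each mouse moved it between -0.093 and 0.030. The cause was not tested. Over all genes, the 9 calls became 86 with DESeq2, 62 with limma-voom on the 18 libraries, 21 with no low-count filter and 3 in the second technical libraries alone. There were 0 with a mean of at least 10 CPM, in the first technical libraries alone, with the covariate, and without the first library of MUT mouse 7. Leaving out each mouse gave 0 to 7 calls, 0 without WT mouse 3 or 4 or MUT mouse 7, 8, 10 or 12. Rel and Tnfaip3 lay under the mean of 10 CPM that the stricter filter asked for, as did Relb, which also failed the filter of limma-voom on the 18 libraries. Depth limits Relb, Tnfaip3 and Rel most, whose counting error in MUT mice was 22.2%, 12.9% and 9.90% of the mean.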

Other observations

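The ratio of Nfkb1 to Nfkb2 within a mouse does not depend on the scaling of libraries. It was 17.2, 20.8, 12.6, 15.3 and 18.3 in MUT mice, against 12.2, 11.4, 12.4 and 13.0 in WT mice. Of the 5 MUT mice 4 lay above every WT mouse, and MUT mouse 8 lay within the WT range. The ratio was chosen after its values were seen, so no test was made.

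The technical libraries of Relb differed most in WT mouse 4, with 1.90 CPM in the first and 0.636 CPM in the second, which spans the values of all 5 MUT mice. Far values were sought with Dixon's rule at 95%, the gap to the nearest neighbour over the range of the group. It flagged no mouse in the 10 genes or the pathway genes named (38 groups of mice examined). With 4 or 5 mice in a group the rule flags only extreme gaps. For Ier3, WT mouse 2 at 35.2 CPM was not flagged, though the next WT mouse was at 24.2 CPM.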
